A study of Mus musculus with 10 samples.

Results

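Germline stem (GS) cells, spermatogonia that self-renew in culture, were compared with and without fibroblast growth factor 5 (FGF5), across all genes on the array that gave a signal. A probe was included when it did not mark a control and was well above background, as flagged by the scanner software, on both arrays of at least 1 condition. This left 34612 of the 55681 probes of the array, and the brightest included probe of each of 17226 named genes stood for that gene. The cells were wildtype. Their origin is an intercross of C57BL/6 and ICR mice in the study's methods, while the labels give the strain as C57BL/6. All cells had been without FGF2 and GDNF, the factors they are usually kept in, for 3 days. They then had 24 hr with 100 ng/mL FGF5 (2 samples) or without it (2 samples). Each sample was hybridized to 1 single-color array, and whether equally numbered samples shared a culture is not stated. The p-values measure only the spread between these samples, which may be technical in part.

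FGFs bind receptor tyrosine kinases together with heparan sulfate. The receptors pass the signal through adaptors to RAS and the ERK kinases, and to PI3K and AKT. ERK activates transcription factors of the ETS family and the immediate early genes, and it induces its own inhibitors, the Sprouty and Spred proteins and the dual specificity phosphatases. In spermatogonia, FGF and GDNF are both known for maintaining self-renewal, and AKT keeps the FOXO factors out of the nucleus.

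The arrays were alike in depth of signal. The 75th percentile of the signal, to which every array was scaled, lay between 575 and 650 scanner units. On each array, 62.9% to 65.2% of the probes passed the background flag, and 0 spots were saturated. The cells carried the genes that define spermatogonia in culture. All 15 germ cell and spermatogonia markers were tested, and their summed signal, in units of the 75th percentile, was 254 and 232 with FGF5 and 257 and 260 without. Among these markers, the log2 signal of *Zbtb16*, which encodes the PLZF repressor, was 5.91 and 5.65 with FGF5 and 5.98 and 6.00 without. Markers of other cells of a culture or of the testis also gave signal, and which cells gave it was not tested. Of 16 fibroblast and feeder markers 14 were tested, with summed signals of 20.6 and 13.5 with FGF5 and 21.4 and 13.3 without, so in both conditions the sample numbered 1 had more of it. Of 13 Sertoli cell markers 8 were tested, with sums of 5.40 and 10.7 against 4.22 and 5.81. Without overlap, 5 of the 8 were higher with FGF5, against 8.80% of all genes. The mean was higher for 7 of the 8, with a median log2 difference of 0.48, which ran from 0.12 to 0.62 under other processing settings. The 8 tested included *Sox9*, *Wt1* and *Gata4*, of which *Gata4* had the lowest difference of the list, -0.08. *Amh*, *Fshr* and *Gata1* were above background on 0 arrays and were not tested. In such bulk samples, fewer cells of a type and less RNA per cell cannot be told apart.

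**Figure D1:**
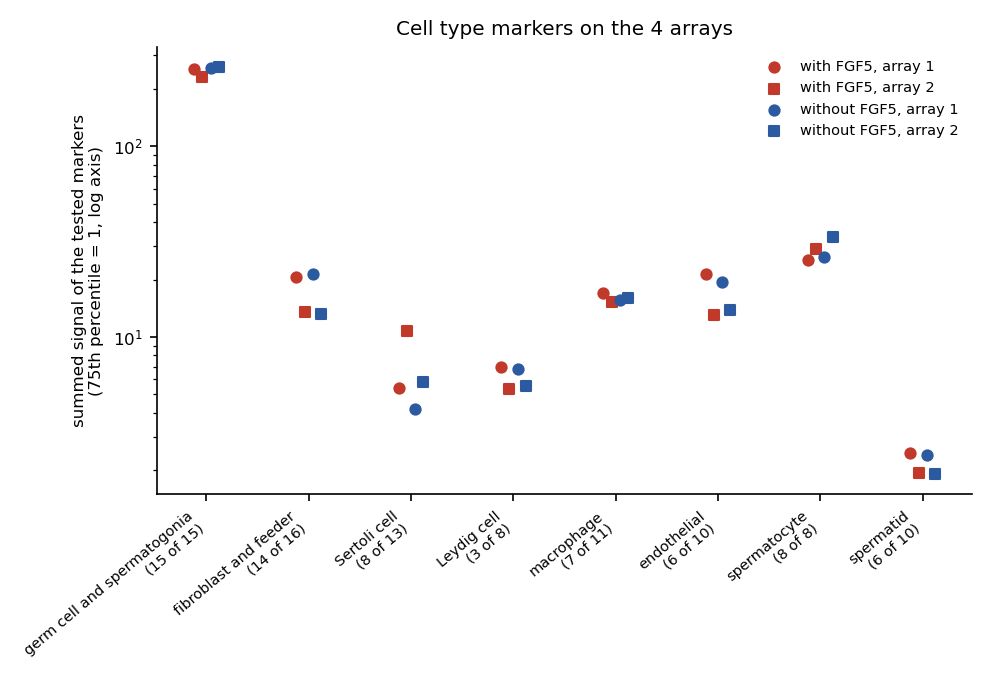
Summed signal of the tested markers of 8 cell types on each of the 4 arrays, in units of the array's 75th percentile on a log axis, with the number tested of those listed below each name. Germ cell markers lie between 232 and 260 on every array, and fibroblast markers lie higher on both arrays numbered 1 (20.6 and 21.4) than on both numbered 2 (13.5 and 13.3).

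Across the array, limma called 0 of 34612 probes at an adjusted p of 0.05, which is 0% of those tested, and the smallest adjusted p was 0.9999. With 2 arrays against 2, this test had little power. In data simulated with the spread of these probes, it recovered 0% of 200 probes changed by 2 log2 units. At 3 log2 units it recovered 50.5%. An unadjusted p under 0.05 was found for 882 probes, or 2.55%. That is less than the share this threshold would pass where nothing differed. The genes below are therefore described by their values on the 4 arrays and by the difference of the means, without a claim of significance. Both arrays with FGF5 lay above both arrays without for 1516 genes, or 8.80% of the 17226, and below both for 2097, or 12.2%. Arrays in random order would give a larger share in either direction, so a lack of overlap alone is no sign of a difference. Where the difference was also at least 2-fold, the order of these counts turned. Then 168 genes (0.975%) were higher with FGF5 and 39 (0.226%) were lower, and at 4-fold or more there were 39 higher and 2 lower. Both groups were dimmer than the tested genes at large, the lower one more so. The mean level over the 4 arrays was above the array's 75th percentile for 32 of the 168 and for 1 of the 39, against 51.7% of all genes tested. The probes without a gene name leaned the other way, with 29 higher and 45 lower of 11425 tested. With normexp as another background correction there were 80 higher and 4 lower genes, or 95.2% higher of those different, against 81.2% here. Leaving out 1 sample leaves 1 array against 2, where no overlap is easier to meet. The counts that follow are therefore not like for like with the 168 and 39. Without sample 1 or 2 with FGF5 there were 586 or 232 higher genes and 232 or 100 lower ones. Without sample 1 or 2 of the cells without FGF5 there were 243 or 285 higher and 344 or 298 lower.

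**Figure D2:**
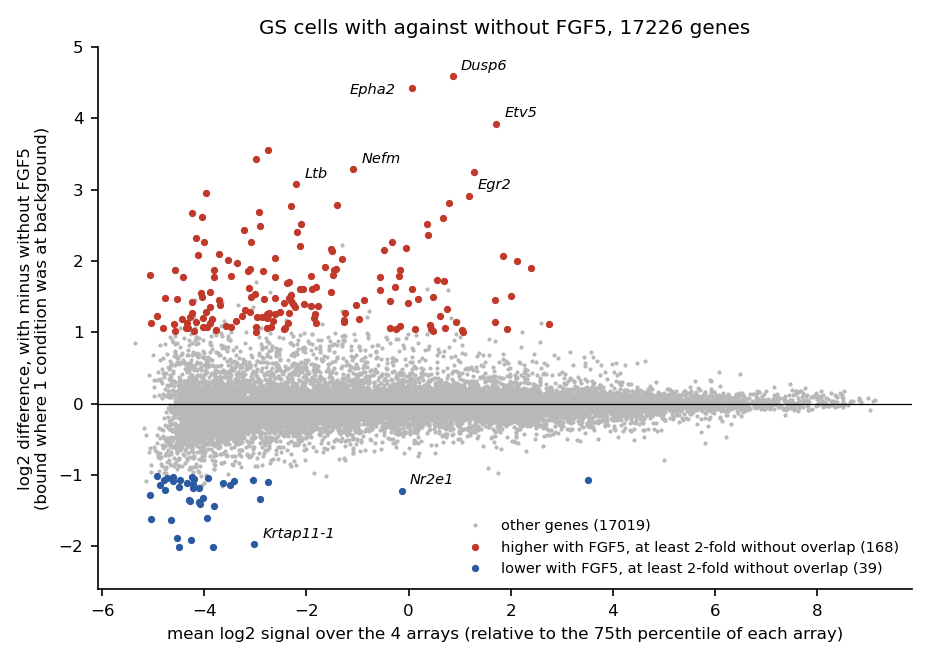
Difference between the mean log2 signals with and without FGF5 (vertical) against the mean log2 signal over the 4 arrays (horizontal, where 0 is the array's 75th percentile), 1 point per gene. The 168 genes higher by at least 2-fold without overlap (red) reach a log2 difference of 4.59, and the 39 lower (blue) reach -2.02.

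The study drew 19 genes from these samples. Of the 168 higher genes 158 were not among them, and neither was any of the 39 lower genes. The 15 higher genes with the largest differences, outside the 19 and above background on all 4 arrays, were led by *Epha2*, *Nefm*, *Ltb* and *Egr2*. The 60-base probe that read each of these 4 is shown because every value of the gene rests on that 1 probe. Their positions follow the mm9 annotation in the files.
Epha2, chr4:140885139-140885198, plus strand: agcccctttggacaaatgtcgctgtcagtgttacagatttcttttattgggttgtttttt
Nefm, chr14:68738193-68738252, minus strand: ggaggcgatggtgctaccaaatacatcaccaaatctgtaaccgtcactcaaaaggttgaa
Ltb, chr17:35333097-35333156, plus strand: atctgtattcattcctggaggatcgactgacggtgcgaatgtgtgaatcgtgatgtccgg
Egr2, chr10:67004798-67004857, plus strand: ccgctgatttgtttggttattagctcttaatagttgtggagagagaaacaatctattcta

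*Epha2* encodes a receptor tyrosine kinase that binds ephrin A ligands on neighboring cells. Its log2 signal was 1.09 and 3.46 with FGF5 and -1.76 and -2.54 without. The means, 2.28 ± 1.68 (SD, n = 2) and -2.15 ± 0.55 (SD, n = 2), differed 21.5-fold (log2 SE 0.84). *Nefm*, for the medium neurofilament chain, had log2 signals of -0.53 and 1.63 with FGF5 and of -2.72 and -2.76 without, which is 9.78-fold (log2 SE 0.73). The samples without FGF5 lay close together, and the samples with it were more than 2 log2 units apart. *Ltb*, for the membrane-bound TNF family ligand lymphotoxin beta, read -1.12 and -0.19 with FGF5 and -4.00 and -3.48 without. It was 8.45-fold higher (log2 SE 0.38). *Egr2*, for a zinc finger factor of the immediate early class, read 1.76 and 3.51 against -0.08 and -0.48, which is 7.55-fold (log2 SE 0.61). None of the 4 overlapped between the conditions, and each was highest in sample 2 with FGF5.

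The other 11 were 4.55-fold to 7.06-fold higher. Among the transcription factors and nuclear proteins, *Zic1*, a zinc finger gene known from neural development, was 7.06-fold higher by its brighter probe, while its other probe gave a log2 difference of -0.13. *Phlda1*, which encodes a pleckstrin homology-like protein known to be induced by growth factors, was 4.55-fold higher, with log2 signals of 0.26 and 1.81 against -1.17 and -1.13. *Crmp1*, for a cytoskeletal protein of axon guidance, was 6.86-fold higher. A pair of genes for GTPase-activating proteins were in this group, *Arhgap9* at 5.30-fold and *Arhgap31* at 4.80-fold. *Tbxa2r*, for the thromboxane A2 receptor, was 6.83-fold higher, with log2 signals of -2.15 and 0.30 against -3.95 and -3.44. The remaining 5, *Tmc6*, *Tspan18*, *Tmem132e*, *Zfp385c* and a RIKEN transcript, were 4.62-fold to 6.08-fold higher. The 3 probes of *Tmc6* gave log2 differences from 0.31 to 2.60. After normexp, the difference of *Tbxa2r* went from 2.77 to 1.85 on the log2 scale, that of *Arhgap9* from 2.41 to 1.57 and that of *Ltb* from 3.08 to 2.09.

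**Figure D3:**
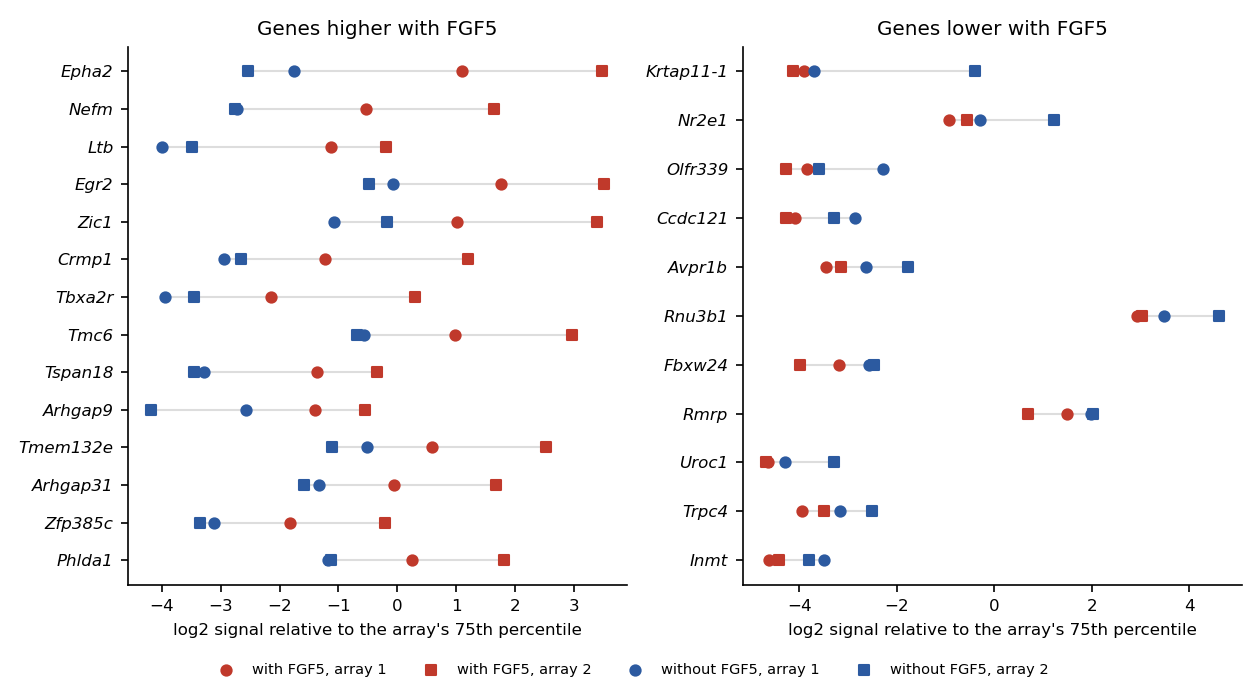
Log2 signal on each array, relative to the array's 75th percentile, of the genes named in the text among those with the largest differences in either direction, above background on all 4 arrays without overlap and outside the study's 19 genes. Circles and squares mark samples 1 and 2 of a condition. On the left each red square (sample 2 with FGF5) is the rightmost point, at 3.46 for *Epha2*, and on the right *Krtap11-1* has a single distant point at -0.39.

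A shared feature of the 168 genes was the order of the samples. Sample 2 with FGF5 was higher than sample 1 for 154 of them (91.7%), against 55.2% of all genes. Without FGF5 the same order held for 87 of the 168 (51.8%), against 57.8% of all genes. Relative to the mean of the samples without FGF5, the median of the 168 was 1.03 log2 units in sample 1 and 2.13 in sample 2. The median SD between the samples was 0.91 with FGF5 and 0.32 without, against 0.18 and 0.17 over all genes. The rule for the 168 used these same values, so they describe these genes and do not test them. The 39 lower genes lacked this order, with sample 2 above sample 1 for 24 of them and medians of -1.42 and -1.20.

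**Figure D4:**
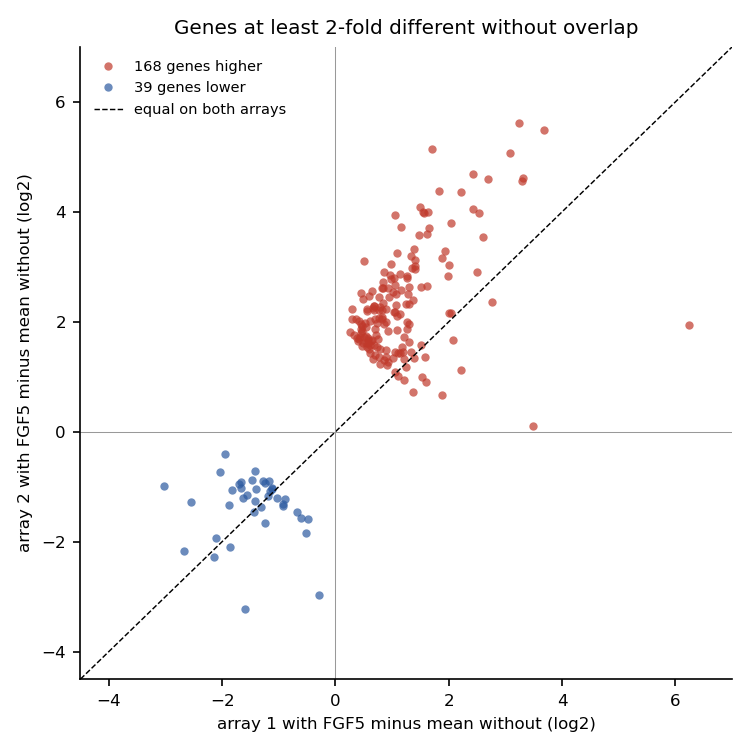
Log2 signal in sample 1 with FGF5 (horizontal) and in sample 2 with FGF5 (vertical), each minus the mean of both samples without it, for the 168 higher genes (red) and the 39 lower genes (blue). The dashed line marks equal values, and 154 of the 168 red points lie above it.

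A further 58 genes were above background on both arrays with FGF5 and on none without, and 18 of them passed the 2-fold rule by their lower bound. This bound compares the mean with FGF5 with the background level of the arrays without it. *Wdr49* had the largest bound, at least 7.77-fold, but its log2 signal was 0.22 in sample 1 with FGF5 and -4.08 in sample 2. It was followed by *A030001D16Rik* (at least 6.15-fold) and by *Cd93*, for a surface glycoprotein of endothelial and myeloid cells, at least 4.81-fold higher. *Mrc1*, for the macrophage mannose receptor, was at least 3.48-fold higher, with -3.74 and -2.43 against -7.09 and -7.02 measured at background. *Cd52*, for a leukocyte surface glycoprotein, was at least 2.42-fold higher. *Bhlhe40*, for a transcriptional repressor, was at least 3.43-fold higher, *Ptgir*, for the prostacyclin receptor, at least 2.78-fold, *Qpct*, for glutaminyl cyclase, at least 3.66-fold, and *Fam111a* and *Smkr-ps* at least 2.70-fold and at least 2.82-fold. Of the 11 macrophage markers 7 were tested, with summed signals of 17.0 and 15.3 with FGF5 and between those values without. Without overlap, 1 of the 7 was higher and 2 were lower. The mean was lower for 5 of the 7, with a median log2 difference of -0.04 and a range from -0.59 (*Adgre1*) to 0.52 (*Cd68*). Of the 10 endothelial markers 6 were tested, with sums of 21.4 and 13.0 against 19.4 and 13.9. *Pecam1*, *Cdh5* and *Kdr* were among the 6, and *Tek* and *Tie1* were not. Without overlap, 3 of the 6 were higher and 0 lower, against 8.80% and 12.2% of all genes, and the median log2 difference was 0.13. Of the 6, *Flt1*, for a VEGF receptor, was 4.08-fold higher, at -1.07 and 0.48 against -2.49 and -2.15. The lowest log2 difference of the 6 was that of *Vwf*, -0.37. The part of such cells in these differences was not tested.

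The genes that were lower with FGF5 were mostly dim. The largest difference above background on all arrays was that of *Krtap11-1*, a hair keratin-associated protein gene, with log2 signals of -3.90 and -4.13 with FGF5 and -3.69 and -0.39 without. Its 3.92-fold difference (log2 SE 1.10) came from sample 2 without FGF5. *Nr2e1*, for the orphan nuclear receptor TLX, was 2.33-fold lower, with -0.93 and -0.57 against -0.29 and 1.23. It was the brightest of the protein-coding genes in this group. *Avpr1b*, for a vasopressin receptor, was 2.14-fold lower, and *Olfr339*, *Ccdc121* and *Fbxw24* were 2.10-fold to 2.20-fold lower. The dimmer probe of *Ccdc121* gave a log2 difference of -0.37. A pair of RNAs that act in ribosomal RNA processing were brighter. *Rnu3b1*, a U3 small nucleolar RNA, read 2.93 and 3.04 with FGF5 and 3.49 and 4.62 without, 2.10-fold lower, and *Rmrp*, the RNA of RNase MRP, was 1.88-fold lower at 1.49 and 0.70 against 1.98 and 2.03. *Uroc1*, *Trpc4* and *Inmt* were 1.84-fold to 1.85-fold lower, though the dimmer probe of *Trpc4* gave a log2 difference of -0.44. Of 82 genes above background only without FGF5, 16 passed the 2-fold rule. They included *Fgf7*, for an FGF ligand, with log2 signals of -4.71 and -4.70 with FGF5 and -4.35 and -2.70 without. *Fgf7* was 2.27-fold lower and *Prdm13* 2.56-fold lower by their measured signals, which lay above the level used for bounds. *Olfr487*, *Gucy2e*, *Slc17a6* and *Rtn4rl1* were at least 2.31-fold to 3.08-fold lower, and no signal among these 6 genes was above -2.70. The other probe of *Gucy2e* gave a log2 difference of -0.13.

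Genes were next grouped into 31 lists by pathway. In every list limma called 0 members at an adjusted p of 0.05, so each list is given by its counts and its median beside those over all genes (median log2 difference -0.02, 8.80% higher and 12.2% lower without overlap). The lists were compiled with earlier results of these samples known.

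**Figure D5:**
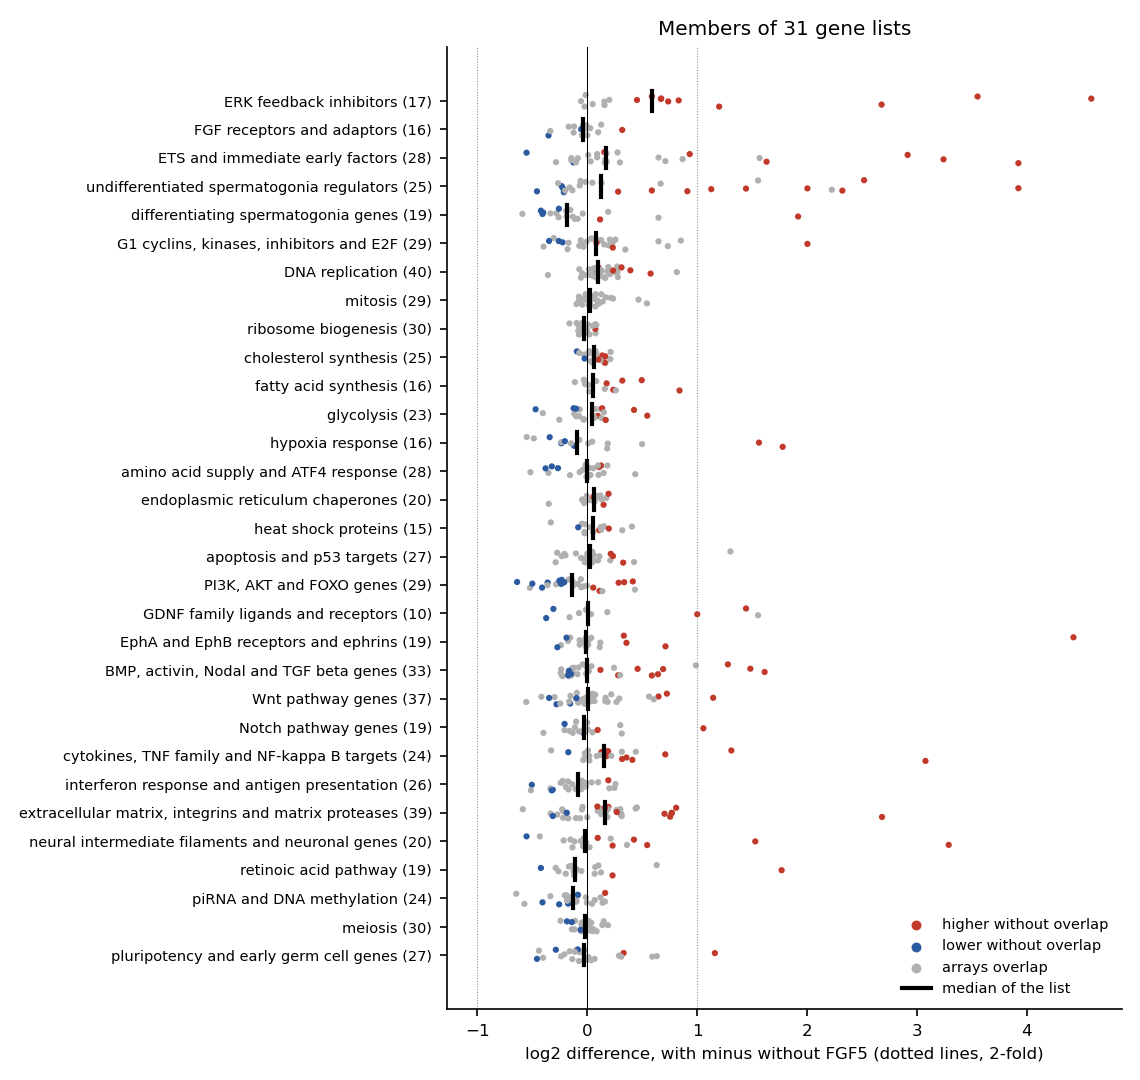
Log2 differences of the tested members of 31 gene lists, with the number tested in parentheses, colored by whether the arrays of the conditions overlapped. The median (black bar) of the ERK feedback list lies at 0.59, and those of the others lie between -0.19 and 0.17, while single members of several lists lie beyond 2-fold.

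The ERK feedback inhibitors stood out by their median. Of 17 tested, 10 were higher without overlap and 0 lower, 4 of them at least 2-fold, and the median difference was 0.59. *Dusp6*, *Dusp4* and *Spry4* belong to the study's 19 genes, chosen on these samples, and without them the median was 0.33. *Dusp5*, for a nuclear ERK phosphatase, read -3.01 and -1.33 with FGF5 and -3.72 and -3.02 without, a 2.30-fold difference in which sample 1 with FGF5 was level with sample 2 without. *Spred2*, for a membrane inhibitor of the RAS to RAF step, read -1.96 and -1.56 against -2.40 and -2.79 and was 1.78-fold higher. Its relative *Spred1* was 1.59-fold and the Sprouty gene *Spry1* 1.67-fold higher. Without sample 2 with FGF5 the list's median was 0.24, and with normexp it was 0.39.

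The receptors and adaptors that carry the signal differed little. Of 16 tested, 1 was higher and 2 were lower without overlap, 0 were at least 2-fold, and the median was -0.04. The 5 FGF receptor genes ranged from -0.12 to 0.03. *Shc1*, for an adaptor, was higher by 0.32 on the log2 scale, and *Frs3*, for an FGF receptor substrate, was at -0.35, with -1.45 and -1.65 with FGF5 and -1.20 and -1.20 without.

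Among 28 ETS and immediate early factors, 6 were higher and 2 lower without overlap, 4 were at least 2-fold higher, and the median was 0.17. Of these 4, *Etv4* and *Etv5* belong to the study's 19 genes, chosen on these samples, and without them the median was 0.16. Beside *Egr2*, *Ier3* (-1.37 and -0.62 against -2.19 and -3.06) was 3.10-fold and *Ier2* (-2.55 and -1.58 against -2.84 and -3.16) 1.91-fold higher, both early response genes. *Fos*, for a subunit of the AP-1 factor, overlapped, with -3.26 and -0.58 against -4.43 and -2.55. *Klf2*, for a Krüppel-like factor, was lower by 0.55 on the log2 scale.

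Promoters of 3 of the higher genes are shown with the motifs found in them, since ERK acts on immediate early genes through the factor SRF at CArG boxes. Each spans 300 bases around a start site of RefSeq in GRCm38.p6. Motif letters are in capitals. Searched on both strands were the ETS motif CCGGAAG, the AP-1 motif TGANTCA, the CRE motif TGACGTCA, the EGR motif GCGTGGGCG and the CArG box.
Egr2, chr10:67537619-67537918, plus strand, 1 of 5 listed for the gene, with a CArG box 72 bases before the start: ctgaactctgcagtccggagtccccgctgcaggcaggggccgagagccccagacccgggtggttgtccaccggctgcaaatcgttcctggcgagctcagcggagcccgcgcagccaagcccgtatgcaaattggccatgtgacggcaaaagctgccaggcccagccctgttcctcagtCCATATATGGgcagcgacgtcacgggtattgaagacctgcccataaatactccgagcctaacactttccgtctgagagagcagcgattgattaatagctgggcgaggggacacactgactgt
Dusp5, chr19:53528895-53529194, plus strand, with adjoining CArG boxes 82 and 72 bases before the start: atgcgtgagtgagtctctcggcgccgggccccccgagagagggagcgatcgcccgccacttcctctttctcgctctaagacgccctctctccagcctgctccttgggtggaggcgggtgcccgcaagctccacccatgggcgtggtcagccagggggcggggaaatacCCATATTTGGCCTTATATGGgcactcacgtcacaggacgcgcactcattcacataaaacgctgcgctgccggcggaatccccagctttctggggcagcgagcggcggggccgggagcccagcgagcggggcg
Epha2, chr4:141300971-141301270, plus strand, with a CRE 33 bases before the start: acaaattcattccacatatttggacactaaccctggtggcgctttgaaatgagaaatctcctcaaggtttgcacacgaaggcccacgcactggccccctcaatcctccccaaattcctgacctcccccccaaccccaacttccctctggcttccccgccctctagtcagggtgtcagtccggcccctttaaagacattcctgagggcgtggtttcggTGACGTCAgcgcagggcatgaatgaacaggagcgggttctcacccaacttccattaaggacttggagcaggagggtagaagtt

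The promoter table held 111 of the 168 higher genes and 12691 of all genes tested. A CArG box was in a promoter of 6 of the 111 (5.41%), namely *Egr2*, *Dusp5*, *Zfp36*, *Fhl2*, *Rhoj* and *Defb33*, named after the search. The share was 1.68% of the 12691 genes, and 1.63% of all 32851 promoters held one. The ETS motif was in 3.60% of the 111 and 17.0% of the 12691 genes, the AP-1 motif in 7.21% and 6.52%, the CRE in 2.70% and 3.34%, and the EGR motif in 0.901% and 1.26%. These matches describe letters in a window and do not show that a factor was bound.

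The lists of other signaling pathways held a few genes with large differences while the medians of these lists stayed near 0. Of 19 EphA and EphB receptors and ephrins, *Epha2* alone was at least 2-fold different, and the median was -0.01. *Ephb1* was 1.64-fold higher, with 0.98 and 1.84 against 0.88 and 0.51. Of 33 BMP, activin, Nodal and TGF beta genes, 9 were higher and 3 lower without overlap, and the median was -0.01. At least 2-fold higher were 3 of the 33, against 0.975% of all genes. *Smad6*, for an inhibitor of BMP signaling, was 3.06-fold higher (-1.94 and -0.25 against -2.73 and -2.68). *Tgfbr2*, for the type II TGF beta receptor, was 2.80-fold higher (-2.68 and -1.08 against -3.26 and -3.48). *Tgfb1*, for a ligand of this receptor, was 2.43-fold higher (-2.01 and -1.73 against -2.76 and -3.54), and the ligand gene *Bmp4* was 1.61-fold higher. Of the BMP targets, *Id3* was 1.50-fold higher and *Id1* was at 0.28 on the log2 scale. In the Wnt list of 37 genes, 3 were higher and 4 lower without overlap. *Ror2*, for a receptor of noncanonical Wnt ligands, was 2.21-fold higher (-1.38 and -0.01 against -2.13 and -1.55), *Lgr5*, for an R-spondin receptor, was 1.65-fold higher, and *Axin2*, a common readout of beta-catenin, was at -0.28. In the Notch list of 19 genes, *Nrarp*, a target of Notch that limits it, was 2.08-fold higher (-2.54 and -1.26 against -3.18 and -2.74).

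GDNF acts through RET and its coreceptors. Of 10 genes tested, 2 were higher and 2 lower without overlap. The 2 higher were *Gfra2* and only 1 of *Ret* and *Gfra1*, which are both among the study's 19. *Gfra2*, for the neurturin coreceptor, was just past 2-fold higher, with -2.82 and -2.16 against -3.50 and -3.49. *Gfra3*, for the artemin coreceptor, read 2.02 and 1.87 with FGF5 and 2.26 and 2.38 without, a log2 difference of -0.37.

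Of 24 genes for cytokines, the TNF family and targets of NF-kappa B, 9 were higher and 1 lower without overlap, with a median of 0.15. Beside *Ltb*, *Cxcr4*, for the receptor of CXCL12, was 2.48-fold higher (-3.26 and -1.85 against -4.10 and -3.63). *Icam1*, for an adhesion molecule, was above background with FGF5 alone and at least 1.64-fold higher. After normexp *Cxcr4* was higher by 0.73 in place of 1.31 on the log2 scale. In the interferon list, 1 of 26 was higher and 3 were lower, with a median of -0.08, and *Oasl2* had the largest difference without overlap, at -0.51.

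Of 39 genes for extracellular matrix, integrins and matrix proteases, 11 were higher and 2 lower without overlap, with a median of 0.16. *Plaur*, for the urokinase receptor, was 6.42-fold higher (-2.62 and -0.56 against -4.13 and -4.40), against a signal that was above background on 1 of 2 arrays without FGF5. After normexp its log2 difference was 1.43 in place of 2.68. The integrin alpha genes *Itga7*, *Itga3* and *Itgav* were 1.70-fold to 1.75-fold higher. *Itga7* read -0.54 and -0.07 against -0.92 and -1.31. Among 20 neural genes, 6 were higher and 1 lower, with a median of -0.02. *Nefl*, for the light neurofilament chain, read -2.47 and -0.60 with FGF5 and -3.39 and -2.74 without and was 2.89-fold higher, next to *Nefm*. *Vim*, for the intermediate filament vimentin, was 1.34-fold higher.

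In the list of undifferentiated spermatogonia regulators, 9 of 25 were higher and 4 lower without overlap, with a median of 0.13. The 6 that were at least 2-fold higher are all among the study's 19, and without the 19 the median was -0.07. Several regulators of the undifferentiated state were lower on both arrays with FGF5 by small amounts. *Pou5f1*, for OCT4, read 0.56 and 0.28 against 0.75 and 1.02, a log2 difference of -0.46. *Foxo1* was at -0.23, *Nanos2* at -0.22 and *Zbtb16* at -0.21. Of 19 genes of differentiating spermatogonia, 2 were higher and 4 lower, with a median of -0.19, and -0.12 without the 19. *Lhx2*, for a LIM homeobox factor, was against this direction, 3.78-fold higher at -1.55 and 0.22 against -2.73 and -2.44. *Dmrt1* was at -0.26. *Kit*, for the receptor that marks differentiating spermatogonia, read -0.87 and -1.09 with FGF5 and -0.80 and -0.94 without, a log2 difference of -0.11 with overlap. *Sox2*, of the pluripotency list, was 2.24-fold higher at -3.31 and -2.28 against -4.49 and -3.42, and the arrays were close to overlap. Of 19 retinoic acid genes, *Aldh1a3*, for an enzyme that makes retinoic acid, was 3.41-fold higher (-3.78 and -2.09 against -4.78 and -4.63) with a signal above background on 1 of 2 arrays without FGF5. The median of that list was -0.12, and -0.09 without the 19.

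Of 29 G1 cyclins, kinases, inhibitors and E2F factors, 3 were higher and 3 lower without overlap, with a median of 0.08. *Ccnd2*, 1 of the 3 higher, is among the study's 19, and without it the median was 0.06. *Mycn* and *Mycl*, both Myc family genes, were at -0.26 and -0.35. Among 40 DNA replication genes the differences were small. The mean was higher with FGF5 for 34 of the 40, 7 were higher and 0 lower without overlap, and the median was 0.10. This median was not stable in sign, at -0.05 without sample 2 and 0.28 without sample 1 with FGF5, and at 0.05 without sample 1 and 0.18 without sample 2 of the cells without FGF5. *Uhrf1*, for a factor that maintains DNA methylation behind the fork, was 1.49-fold higher (3.98 and 4.74 against 3.82 and 3.74), and *Tk1*, for thymidine kinase, was 1.31-fold higher (2.16 and 2.16 against 2.11 and 1.42). Of 29 mitosis genes 0 were higher or lower without overlap, and the median was 0.02. These genes differed by sample number instead, since 28 of the 29 were higher in sample 2 than in sample 1 with FGF5 and 29 of 29 without. Replication genes had this order in 35 of 40 with FGF5 and 27 of 40 without. Leaving out 1 sample at a time moved the median of the mitosis genes between -0.29 (without sample 2 with FGF5) and 0.35 (without sample 1 with FGF5).

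The 29 PI3K, AKT and FOXO genes had 5 higher and 9 lower without overlap and a median of -0.14. The median was -0.04 without sample 2 and -0.31 without sample 1 with FGF5. The 4 lower genes with the largest differences code for regulators of transcription and the cell cycle. *Klf15*, for a Krüppel-like factor, read -2.27 and -2.41 with FGF5 and -1.85 and -1.54 without, a log2 difference of -0.64. *Bcl6*, for a repressor, was at -0.50 (3.87 and 3.06 against 4.02 and 3.91), *Ccng2*, for cyclin G2, at -0.41 (-3.27 and -3.68 against -3.12 and -2.99), and *Cited2* at -0.36 (1.49 and 0.96 against 1.52 and 1.66). In the last 3, sample 1 with FGF5 lay close to a sample without it. *Pik3cd*, for a catalytic subunit of PI3K, was on the other side at 0.41.

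Metabolic genes differed by less than 2-fold. Among 16 genes of fatty acid synthesis, 5 were higher and 0 lower without overlap, with a median of 0.05. *Scd1*, for a desaturase, was 1.79-fold higher (-1.44 and -0.64 against -1.90 and -1.85), and *Elovl6*, for an elongase, was 1.41-fold higher. Of 25 cholesterol genes, 5 were higher and 2 lower, with a median of 0.06 and a range from -0.10 to 0.21. Among 23 glycolysis genes, 5 were higher and 3 lower, with a median of 0.05. *Hk2*, for hexokinase 2, read 0.87 and 1.44 against 0.55 and 0.67 and was 1.46-fold higher. *Pkm*, for pyruvate kinase, was 1.34-fold higher, and *Pfkl*, for a phosphofructokinase, was at -0.47. Of 16 hypoxia genes, 2 were higher and 4 lower, with a median of -0.10. The higher pair were *Bhlhe40* and *Adm*, for adrenomedullin, 2.95-fold higher at -3.40 and -2.80 against -4.53 and -4.80.

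The remaining lists lay close to 0. Ribosome biogenesis genes ranged from -0.16 to 0.08 over 30 genes, the median being -0.03. The medians were 0.00 for 28 genes of amino acid supply and the ATF4 response, 0.06 for 20 endoplasmic reticulum chaperones, 0.05 for 15 heat shock proteins and 0.03 for 27 genes of apoptosis and p53. Each of these 5 lists had 0 members at least 2-fold different without overlap. Of 24 genes of the piRNA pathway and DNA methylation, 1 was higher and 4 were lower without overlap, with a median of -0.13. *Piwil4*, 1 of the 4 lower, is among the study's 19, and without it the median was -0.10. Of 30 meiosis genes, 0 were higher and 3 lower, with a median of -0.02, and of 27 pluripotency and early germ cell genes, 2 were higher and 3 lower, with a median of -0.03. The summed signal of the 8 spermatocyte markers was 25.2 and 28.9 with FGF5 and 26.3 and 33.5 without, and that of 6 tested spermatid markers was 2.48 and 1.94 against 2.40 and 1.91. Of 8 Leydig cell markers 3 were tested, with sums of 6.97 and 5.33 against 6.83 and 5.57.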

How the data were processed

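Of 10 arrays in the series, the 4 of cultured spermatogonia were used, and the 6 columns of sorted cells in the normalized table were not. The authors scanned single-color Agilent arrays and extracted signals with Feature Extraction (10.7.1.1 in the file headers, 10.7.3.1 in the processing notes). The deposited intensity was the background-corrected processed signal. The authors' normalized table, deposited as log2 values with a 75th percentile shift, was an alternative. Here, log2 intensity (floor 1) minus each array's 75th percentile over 59305 non-control spots was averaged over the spots of a probe after outlier spots were dropped. A probe with several spots counted as above background where at least as many of them were as were not. Conditions were compared with limma 3.58.1 in R 4.3.3 without pairing and with Benjamini-Hochberg adjustment over all probes tested. The script was tested on simulated data. The brightest probe stood for a gene. Symbols were those of the files, updated through accessions to RefSeq (GRCm38.p6) for 27509 of 33256 named probes. A gene above background in 1 condition only was compared with the other condition's background as a lower bound. Signals already above that level were used as measured. The genes named were the 15 largest differences in each direction without overlap outside the study's 19, the 10 largest bounds and up to 4 per direction in each list, with predicted genes only among the first 5, plus genes whose role defines a list. A gene that met this rule is not reported here. The members and lists were chosen with earlier results of these data known. Depth has no counterpart on arrays, where the number of arrays limits the precision. Alternatives in background correction, normalization, percentile, floor, filter, outliers, variance model, pairing, probes per gene and samples were run.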

Additional observations from a re-analysis of the deposited data

How the results depend on the processing

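No probe passed the adjusted p in limma under 13 of 14 alternatives. The exception was without sample 1 with FGF5, where 1 probe passed, so leaving out 1 sample gave 0 to 1. The number of higher genes was 80 with normexp, 586 at most and 232 at least when 1 sample was left out, and within 1.5 times of 168 under the other alternatives. The lone sample then left in a condition was assumed to vary like the others. With 1 array against 2, no overlap is also easier to meet, and the set of probes tested differs. The number of lower genes was 24 with quantile normalization, 4 with normexp, 65 with no filter on dim probes and 9 with probes above background on all 4 arrays, and it ran from 100 to 344 when 1 sample was left out. The cause of these shifts was not tested. Of the 207 higher and lower genes, 192 kept their call with quantile normalization, 83 with normexp and 113 without sample 2 with FGF5. None of the named genes checked under these alternatives changed sign. Some list members and markers, among them *Gata4*, *Sox9* and *Etv5*, were not checked. The median of the GDNF list ran from -0.17 to 0.22 and that of the ERK feedback list from 0.24 to 0.87 when 1 sample was left out. With the replicate number as a block, 0 probes passed and 2477 (7.16%) had an unadjusted p under 0.05, against 882 (2.55%). Arrays of the same number were the most alike, with r = 0.9949 for number 1 and 0.9901 for number 2 across the conditions. Within a condition r was 0.985 with FGF5 and 0.9866 without. Equally numbered samples also deviated together (r = 0.636). With only 2 pairs and no label tying them, the numbers were not taken to pair the samples. The rule of no overlap takes no account of the number.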
